A study of Homo sapiens with 9 samples.

Results

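The 48 genes described here encode the machinery that moves a cell through its division cycle and holds it out of it: cyclins, cyclin-dependent kinases (CDKs), CDK inhibitors, the phosphatases, kinases and adaptors that act on CDKs, the E2F and DP transcription factors, the retinoblastoma (pocket) proteins, the MuvB core of the DREAM complex, the MYB and FOXM1 factors and the proliferation marker MKI67. The list was drawn up by gene name, with earlier results of these data known, and all 48 were found among the 16008 genes listed in both count tables. RNA-Seq was performed on subcutaneous xenografts of PC3, an androgen-independent human prostate cancer cell line. They were grown in the flanks of male NSG mice, injected at 11 weeks of age by the series record, and sampled at the end of the experiment. NSG mice lack mature lymphocytes and NK cells but keep fibroblasts, endothelial cells, myeloid cells and muscle. There were 3 libraries from mice given the vehicle PBS, 3 titled P-DXd (patritumab deruxtecan, directed at HER3) and 3 titled T-DXd (trastuzumab deruxtecan, directed at HER2). Both conjugates carry deruxtecan, a topoisomerase I inhibitor, and were given weekly at 5 mg/kg. The treatment field names the other conjugate for each treated library, so groups are named by title and which conjugate each group received is unresolved. The deposited count columns carry the same conjugate names as the titles. The comparison of both conjugates with PBS does not depend on it. The series record also gives tumors of 90 mm3 at randomization and 5 cycles of treatment. For the 5 mg/kg experiment, whose tumors were sequenced, the study's methods give a younger age, a larger volume and fewer cycles. The record's values are those that the methods give for an initial T-DXd experiment at a higher dose.

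In a dividing cell, D-type cyclins with CDK4 or CDK6 and then E-type cyclins with CDK2 phosphorylate the pocket proteins, which frees activator E2Fs to drive the genes of DNA replication. Cyclin A and B with CDK1 and CDK2 then carry the cell through S phase, G2 and mitosis, with MYBL2, FOXM1 and the MuvB core driving the genes of G2 and M. In a cell out of the cycle, RBL1 or RBL2 with E2F4 or E2F5, a DP partner and the MuvB core form DREAM, a repressor of both gene sets, and CIP/KIP and INK4 inhibitors hold CDKs inactive.

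Sequencing depth was 54481702 to 125538606 total counts, and the shallowest PBS library had more counts than the deepest treated one. Of the 48 members, 47 had at least 10 counts in every library; the lowest count, 4, was that of CCND2. A pair of libraries stood apart. PBS replicate 1 had the highest PBS value for 28 of the 29 members called lower, and P-DXd-titled replicate 2 had a summed level of 12 skeletal muscle genes far above the other treated libraries. Of 7 markers of PC3 cells, 3 were called higher (42.9%, against 15.2% of all genes) and 0 lower with both conjugates. KRT8 had 407 to 517 CPM (counts divided by the scaled library size) in PBS and 1038 to 1273 CPM in treated libraries, and EPCAM had 278 to 434 and 509 to 607 CPM. CD44, the marker with a negative log2 fold change (-0.21 (SE 0.09), not called), had 728 to 875 and 646 to 788 CPM.

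Most of the cell cycle engine was lower in treated xenografts. Compared with PBS, 29 of the 48 members were called lower and 3 higher in the comparison of both conjugates, where 17.1% of the 15070 genes tested were called lower and 15.2% higher. A gene was called at an adjusted p of at most 0.05 and a fold change of at least 1.5, by edgeR's quasi-likelihood test with Benjamini-Hochberg adjustment over all genes tested. The median log2 fold change was -1.03 over the members and -0.014 over all genes. In P-DXd-titled xenografts 28 members were called lower and 3 higher (13.8% and 11.2% of all genes tested), and in T-DXd-titled xenografts 29 were called lower and 3 higher (15.5% and 13.1%). All 31 members called in P-DXd-titled xenografts were also called in T-DXd-titled xenografts, which share the PBS libraries, and CDK6 was called in the latter alone. When the treated groups were compared with each other by the same test, no difference in CDK6 was detectable (log2 fold change 0.09, SE 0.12, adjusted p 0.9998). The 6 treated libraries lay below all PBS libraries for 31 members and above them for 6, where 25.5% and 25% of all genes did so. In bulk tissue, fewer cells that express a gene and less of its RNA per cell cannot be told apart.

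**Figure D1:**
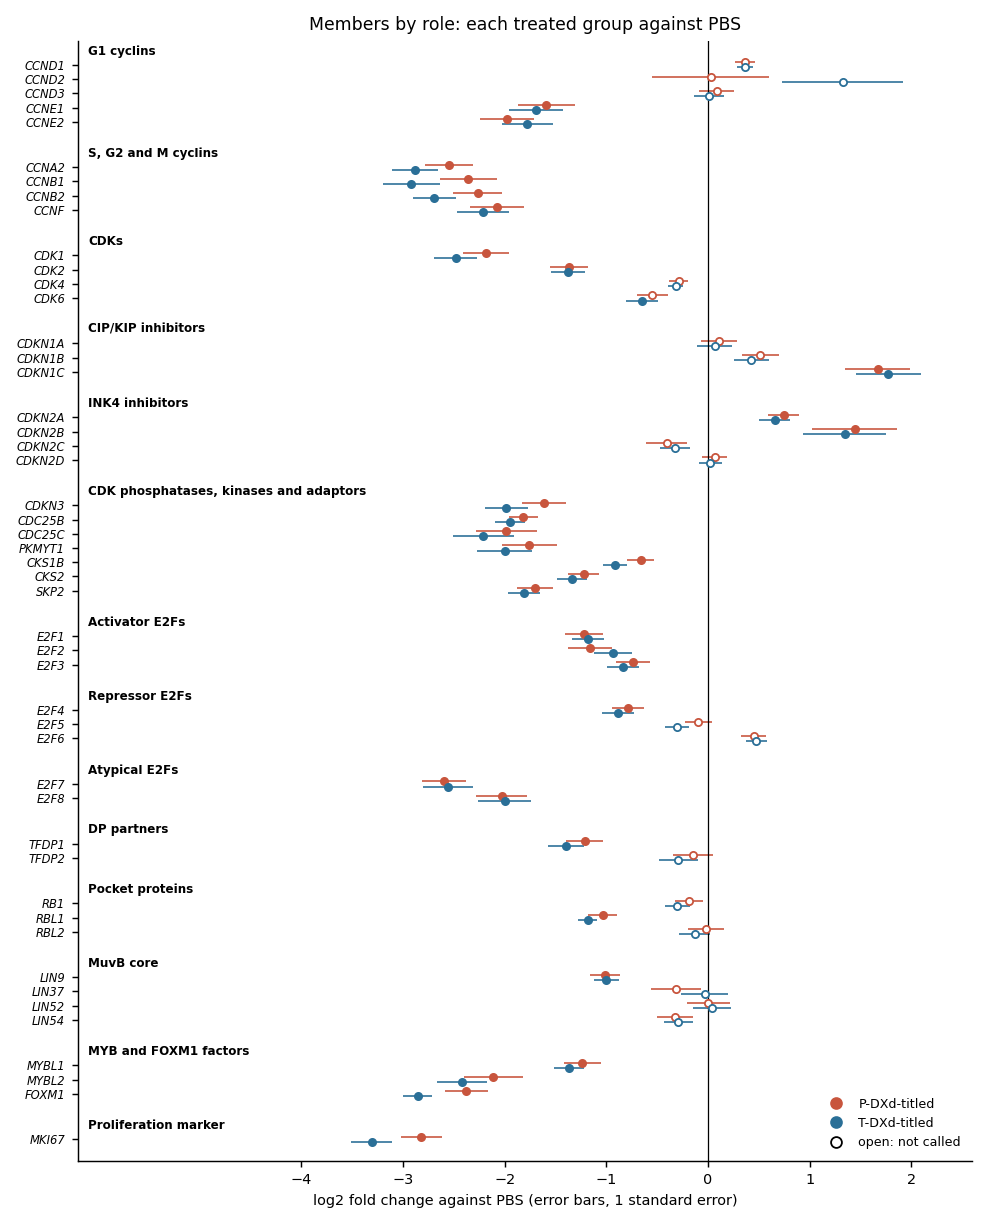
Log2 fold change against PBS of each of the 48 members, grouped by role, in P-DXd-titled (red) and T-DXd-titled (blue) xenografts. Points are fitted values, bars 1 standard error, and filled points are called genes. The cyclins of S, G2 and M, the MYB and FOXM1 factors and MKI67 lie far to the left, CCND3, RB1 and RBL2 lie near 0, CCND2 has the widest bars, and CDKN1C, CDKN2A and CDKN2B are the filled points on the right.

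The cyclins divided by phase. D-type cyclins, which answer growth signals in G1, did not fall. CCND1 (ENSG00000110092.3; chromosome 11, 69455855 to 69469242 as listed in the tables, whose genome build is not named) had 353, 382 and 388 CPM in PBS replicates 1 to 3 and from 456 to 496 (median 486) CPM in treated libraries. Every treated library was above every PBS library, and the rise passed the adjusted p (log2 fold change 0.36, SE 0.06, adjusted p 0.000857) but not the fold change minimum. CCND3 had 75.6, 54.6 and 52.5 CPM in PBS and from 57.1 to 74.3 (median 60.5) CPM in treated libraries, which overlapped (log2 fold change 0.04, SE 0.12, adjusted p 0.806). CCND2 was near the detection limit, at 0.0624 to 0.17 CPM in PBS and 0.0734 to 0.35 CPM in treated libraries, and too low to compare.

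The E-type cyclins, which activate CDK2 at the entry to S phase, both fell. CCNE2 had 16.1, 9.70 and 9.43 CPM in PBS and from 2.68 to 3.77 (median 3.17) CPM in treated libraries (a log2 fold change of -1.88, SE 0.19, adjusted p 2.43e-05). CCNE1 fell by less on the log2 scale, -1.65 (SE 0.21), from 9.92 to 17.3 CPM to 3.25 to 5.56 CPM. All 4 cyclins of S, G2 and M fell further. CCNA2, the A-type cyclin of dividing somatic cells, had 81.2, 48.7 and 48.2 CPM in PBS and from 7.54 to 11.1 (median 8.55) CPM in treated libraries (a log2 fold change of -2.71, SE 0.18, adjusted p 3.55e-06). CCNF, the substrate-binding part of an SCF ubiquitin ligase, had 38.9, 22.9 and 20.5 CPM and from 5.64 to 7.43 (median 5.95) CPM and was the least changed of the 4 (log2 fold change -2.15, SE 0.18, adjusted p 8.43e-06). The B-type cyclins that activate CDK1 in mitosis lay between them, with log2 fold changes of -2.62 (SE 0.23) for CCNB1 and -2.47 (SE 0.19) for CCNB2. In each of these 4 genes the lowest PBS library was above the highest treated library. The other A-type cyclin, CCNA1, is not among the members. It had 116, 43.0 and 41.8 CPM in PBS replicates 1 to 3 and from 30.9 to 38.9 (median 32.3) CPM in treated libraries. Its treated levels were thus above those of CCNA2.

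The kinases differed in the same way. CDK1, the kinase of mitosis, had 308, 189.7 and 195 CPM in PBS and from 37.7 to 55.3 (median 43.1) CPM in treated libraries (a log2 fold change of -2.33, SE 0.17, adjusted p 4.39e-06). CDK2 fell from 41.1 to 61.9 CPM to 16.2 to 21.2 CPM (log2 fold change -1.38, SE 0.13, adjusted p 1.64e-05). The G1 kinase CDK4 had 121, 113 and 113 CPM in PBS and from 87.6 to 100.4 (median 92.2) CPM in treated libraries. Its groups did not overlap either, but the difference was small (log2 fold change -0.31, SE 0.06, adjusted p 0.00174) and was not called. CDK6 was called (log2 fold change -0.61, SE 0.12, adjusted p 0.00192), with 191, 138 and 155 CPM in PBS and from 90.6 to 122 (median 104) CPM in treated libraries, but without PBS replicate 1 its log2 fold change was -0.46, a fold under 1.5 (adjusted p 0.00385; range over all alternatives 6.13e-05 to 0.00572). It was also not called with 6 of the other 15 alternatives that keep both thresholds, among them those without P-DXd-titled replicate 3 and without either replicate 2 or replicate 3 of the T-DXd-titled group.

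**Figure D2:**
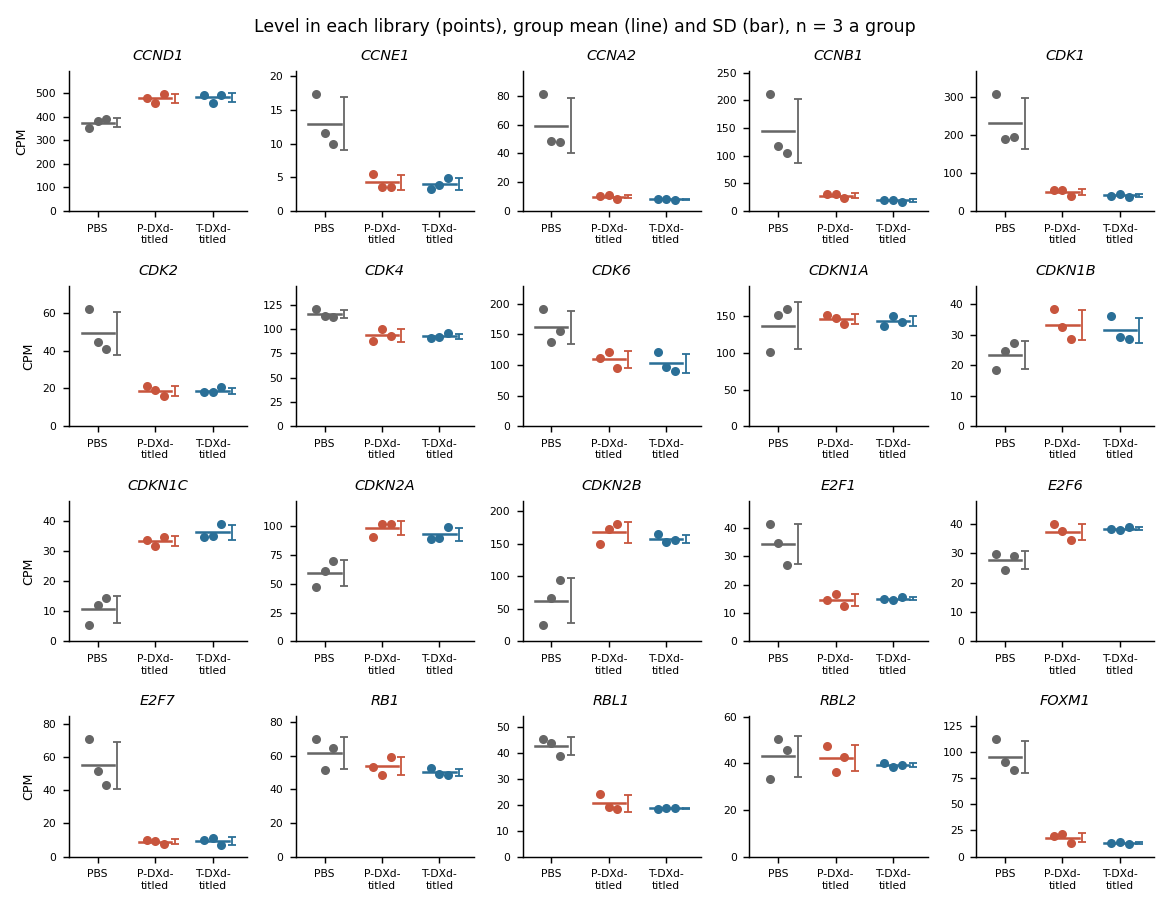
Level in CPM of 20 members in each library, with the vertical axis of each panel starting at 0. Points are libraries, in the order of their replicate numbers, lines are group means and bars are 1 SD (n = 3 a group). For CCNA2, CCNB1, CDK1, E2F7 and FOXM1 the treated libraries lie near the bottom of the panel, for CDKN1A, RB1 and RBL2 the groups overlap, and for CDKN1C and CDKN2B the treated libraries lie above all PBS libraries, of which replicate 1 is the lowest.

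All 7 phosphatases, kinases and adaptors of CDKs fell. CDC25C, a phosphatase that activates CDK1, had 18.8, 10.8 and 8.90 CPM in PBS and from 2.51 to 3.45 (median 2.998) CPM in treated libraries (a log2 fold change of -2.10, SE 0.21, adjusted p 2.48e-05). CKS1B, a small CDK-binding protein that also helps SKP2 to capture CDKN1B, changed least, with 124, 95.9 and 99.4 CPM in PBS and from 52.2 to 72.6 (median 60.4) CPM in treated libraries (a log2 fold change of -0.79, SE 0.11, adjusted p 0.000174). Between these lay CDC25B, a related phosphatase, at -1.89 (SE 0.10) on the log2 scale, PKMYT1, an inhibitory kinase of CDK1, at -1.88 (SE 0.19), CDKN3, a phosphatase that acts on CDKs, at -1.80 (SE 0.17), SKP2, the substrate receptor of the ligase that degrades CDKN1B, at -1.76 (SE 0.12), and CKS2, the close relative of CKS1B, at -1.29 (SE 0.10). Activators and inhibitors of CDK1 fell together. In P-DXd-titled libraries the fall of CKS1B was smaller (log2 fold change -0.66), and its call was lost without PBS replicate 1 (log2 fold change -0.55, adjusted p 0.00179) and without P-DXd-titled replicate 3 (adjusted p 0.0509; range over all alternatives 0.00013 to 0.0509). Another row bears the symbol CKS1B, for the near-identical copy CKS1BP3, so reads could be split between them. MKI67, the antigen Ki-67 of dividing cells, fell most of all members. It had 305, 222 and 189 CPM in PBS, 33.7, 37.1 and 29.5 CPM in P-DXd-titled and 25.5, 26.0 and 20.5 CPM in T-DXd-titled libraries (a log2 fold change of -3.05, SE 0.18, adjusted p 3.06e-06).

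The promoters of several of these genes carry the letters to which cell cycle repressors and activators are known to bind. The MuvB protein LIN54 binds TTTGAA, the core of the cell cycle genes homology region, and CCAAT is bound by NF-Y. Promoters were read from RefSeq (GRCh38.p14), as the most upstream window of each gene, 250 bases before to 50 after its start, and 38 of the 48 members had one. The 120 bases before the start are shown, 5′ to 3′ on the strand of the gene, for MKI67, which fell most, and for CCNB2, CKS1B and CKS2, in which TTTGAA lies at nearly the same place. They were chosen after their values were seen. Capitals mark TTTGAA and CCAAT, on either strand (TTCAAA and ATTGG where they are on the other one).
MKI67 (chr10:128126424-128126543, GRCh38.p14, minus strand): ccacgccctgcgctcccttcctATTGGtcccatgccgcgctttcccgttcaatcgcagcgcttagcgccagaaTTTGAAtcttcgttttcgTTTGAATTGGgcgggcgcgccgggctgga
CCNB2 (chr15:59105026-59105145, GRCh38.p14, plus strand): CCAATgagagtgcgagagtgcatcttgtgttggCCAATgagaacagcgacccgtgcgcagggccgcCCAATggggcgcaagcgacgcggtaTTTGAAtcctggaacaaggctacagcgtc
CKS1B (chr1:154974561-154974680, GRCh38.p14, plus strand): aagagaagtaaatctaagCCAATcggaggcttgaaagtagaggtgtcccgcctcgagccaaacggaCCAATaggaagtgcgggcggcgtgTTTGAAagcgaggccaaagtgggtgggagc
CKS2 (chr9:89311075-89311194, GRCh38.p14, plus strand): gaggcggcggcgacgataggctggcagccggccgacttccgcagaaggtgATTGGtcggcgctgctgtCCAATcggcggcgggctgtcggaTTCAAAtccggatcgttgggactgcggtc
TTTGAA began at -29 from the start in MKI67, CCNB2 and, on the other strand, CKS2, and at -30 in CKS1B. In MKI67 it shared a base with a CCAAT on the other strand, and a further TTTGAA began at -47. In CCNB2 copies of CCAAT began at -120, -87 and -54. TTTGAA was found in 8 of 23 windows of members called lower (34.8%), 0 of 2 called higher and 2 of 13 not called (15.4%), and in 10.6% of the 12489 windows of genes in both tables. CCAAT was found at least 2 times in 10 of 23, 0 of 2 and 2 of 13 windows, and in 12.8% of the 12489. A match is a description of the letters, not a bound site, and the start used in these cells may be another.

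The 3 members called higher were all CDK inhibitors, but not every inhibitor rose. Of the CIP/KIP inhibitors, which bind cyclin and CDK together, CDKN1C (p57; ENSG00000129757.8; chromosome 11, 2904443 to 2907111) rose most. It had 5.52, 12.0 and 14.2 CPM in PBS, 33.7, 31.6 and 34.7 CPM in P-DXd-titled and 34.6, 34.8 and 38.8 CPM in T-DXd-titled libraries (a log2 fold change of 1.71, SE 0.24, adjusted p 0.0002). The treated libraries were close to each other and all above PBS. Without PBS replicate 1, in which it was lowest, the log2 fold change was 1.41 (adjusted p 4.61e-07). CDKN1B (p27) had 18.3, 24.9 and 27.2 CPM in PBS and from 28.8 to 38.4 (median 31.0) CPM in treated libraries. These did not overlap, and the difference passed the adjusted p (log2 fold change 0.46, SE 0.14, adjusted p 0.0172) but not the fold change minimum. CDKN1A (p21), an inhibitor of CDK2 that arrests cells in G1, had 101, 151 and 159.5 CPM in PBS and from 137 to 152 (median 145) CPM in treated libraries, and no difference was detectable (log2 fold change 0.08, SE 0.12, adjusted p 0.612). Without PBS replicate 1 its log2 fold change had the opposite sign, at -0.09 (adjusted p 0.214).

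The INK4 inhibitors bind CDK4 and CDK6. CDKN2A (ENSG00000147889.12; chromosome 9, 21967751 to 21995300), whose gene encodes p16 and p14ARF, and CDKN2B (p15; ENSG00000147883.9; chromosome 9, 22002902 to 22009362) lie side by side and both rose. CDKN2B had 25.5, 67.1 and 94.4 CPM in PBS, 149.9, 174 and 180.0 CPM in P-DXd-titled and 165, 153 and 156 CPM in T-DXd-titled libraries (a log2 fold change of 1.39, SE 0.31, adjusted p 0.00326). PBS replicate 1 was again far below the other PBS libraries, and without it the log2 fold change was 1.02 (adjusted p 1.94e-05). CDKN2A had 46.9, 60.9 and 69.7 CPM in PBS and from 89.1 to 102 (median 95.3) CPM in treated libraries (a log2 fold change of 0.69, SE 0.11, adjusted p 0.000526). Without PBS replicate 1 its log2 fold change was 0.56, a fold under 1.5 (adjusted p 0.000107; range over all alternatives 1.51e-07 to 0.00263). The counts do not separate the transcripts of p16 from those of p14ARF.

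CDKN2C (p18) did not rise. It had 15.6, 18.4 and 21.5 CPM in PBS and from 11.5 to 17.3 (median 14.2) CPM in treated libraries, which overlapped (log2 fold change -0.38, SE 0.14, adjusted p 0.0439). CDKN2D (p19) had 14.0, 15.2 and 16.6 CPM in PBS and from 14.6 to 16.5 (median 15.7) CPM in treated libraries (a log2 fold change of 0.04, SE 0.09, adjusted p 0.743). In the groups of 3 the calls of CDKN2A and CDKN2B were lost when some single libraries were left out. In P-DXd-titled xenografts CDKN2B was not called without PBS replicate 2 or any of the P-DXd-titled libraries (adjusted p 0.000444 to 0.104 over all alternatives). In T-DXd-titled xenografts it was not called without PBS replicate 2 or any of the T-DXd-titled libraries (adjusted p 4.92e-06 to 0.101). Nor was it called there with the first digit of the code in the title as a block, a digit whose meaning the labels do not give. With 1 library left out the log2 fold change of CDKN2B ranged from 1.06 to 1.86 and from 0.97 to 1.77. CDKN2A was not called in P-DXd-titled xenografts without P-DXd-titled replicate 3 (log2 fold change 0.72, adjusted p 0.0554), nor in T-DXd-titled xenografts without PBS replicate 1 (log2 fold change 0.51) or T-DXd-titled replicate 3 (log2 fold change 0.60, adjusted p 0.0582). As the INK4 gene with the largest rise, CDKN2B is shown by the 120 bases before its RefSeq start, in which none of the letters searched was found, so that there are no capitals.
CDKN2B (chr9:22009306-22009425, GRCh38.p14, minus strand): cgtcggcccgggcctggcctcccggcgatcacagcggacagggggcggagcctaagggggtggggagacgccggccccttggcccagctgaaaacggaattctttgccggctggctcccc

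The E2F family did not divide cleanly by class. The activators E2F1, E2F2 and E2F3, which drive the genes of DNA replication, all fell. E2F1 had 41.3, 34.7 and 27.0 CPM in PBS and from 12.5 to 16.6 (median 14.9) CPM in treated libraries (a log2 fold change of -1.21, SE 0.13, adjusted p 3.35e-05). E2F2 was the least abundant, with 7.58, 6.36 and 5.39 CPM in PBS and from 2.52 to 3.67 (median 3.15) CPM in treated libraries (a log2 fold change of -1.05, SE 0.16, adjusted p 0.000293). E2F3 had 70.2, 50.3 and 48.05 CPM and from 28.9 to 35.7 (median 32.7) CPM (log2 fold change -0.79, SE 0.12, adjusted p 0.000313). For all 3 the treated libraries lay below the lowest PBS library. In P-DXd-titled libraries E2F3 was not called without PBS replicate 1 (log2 fold change -0.55) or without P-DXd-titled replicate 1 or 3 (adjusted p 0.05 and 0.0709; range over all alternatives 0.000773 to 0.0709).

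The repressor E2Fs did not move together. E2F4, the E2F of DREAM in resting cells, had 121, 88.1 and 82.4 CPM in PBS and from 49.0 to 57.9 (median 54.4) CPM in treated libraries and fell (log2 fold change -0.84, SE 0.11, adjusted p 0.000127). In P-DXd-titled libraries its call was lost without P-DXd-titled replicate 3 (adjusted p 0.0527; range over all alternatives 0.000118 to 0.0527). E2F5, which can take its place, had 14.6, 17.8 and 16.2 CPM in PBS and from 12.7 to 15.9 (median 13.7) CPM in treated libraries (a log2 fold change of -0.21, SE 0.10, adjusted p 0.112). E2F6, which represses with Polycomb proteins and not with pocket proteins, had 29.8, 24.2 and 29.1 CPM in PBS and from 34.6 to 39.9 (median 38.1) CPM in treated libraries. Every treated library was above PBS, with a difference (log2 fold change 0.45, SE 0.08, adjusted p 0.00109) below the fold change minimum. The atypical repressors, themselves known targets of E2F1, fell most of the family. E2F7 (ENSG00000165891.11) had 70.5, 51.3 and 42.9 CPM in PBS and from 6.78 to 10.9 (median 9.71) CPM in treated libraries (a log2 fold change of -2.59, SE 0.17, adjusted p 3.79e-06). E2F8 had 26.2, 18.8 and 14.7 CPM and from 3.89 to 6.20 (median 4.72) CPM (log2 fold change -2.02, SE 0.19, adjusted p 1.69e-05).

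Of the DP proteins, which pair with E2Fs to bind DNA, TFDP1 was among the most abundant members. It had 419, 280.1 and 273 CPM in PBS and from 118 to 147 (median 128) CPM in treated libraries (a log2 fold change of -1.31, SE 0.13, adjusted p 2.19e-05). TFDP2 had 17.9, 28.0 and 28.7 CPM in PBS and from 18.5 to 23.9 (median 21.2) CPM in treated libraries, which overlapped (log2 fold change -0.23, SE 0.15, adjusted p 0.206). E2F binding is known at the letters TTTCGCGC, TTTGGCGC and TTTCCCGC, which were searched on both strands. At least 1 of them was found in 6 of 23 windows of members called lower (26.1%), 0 of 2 called higher, 1 of 13 not called (7.69%) and 4.1% of the 12489 windows. E2F1, E2F2 and RBL1 are shown because all fell and carry TTTGGCGC close to the start. Capitals mark these letters and, in E2F1, CCAAT.
E2F1 (chr20:33686386-33686505, GRCh38.p14, minus strand): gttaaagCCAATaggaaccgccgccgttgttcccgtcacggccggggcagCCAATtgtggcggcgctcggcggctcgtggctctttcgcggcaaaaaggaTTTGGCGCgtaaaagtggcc
E2F2 (chr1:23531234-23531353, GRCh38.p14, minus strand): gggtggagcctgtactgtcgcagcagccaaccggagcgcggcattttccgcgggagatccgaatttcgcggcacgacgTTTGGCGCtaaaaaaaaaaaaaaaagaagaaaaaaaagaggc
RBL1 (chr20:37095998-37096117, GRCh38.p14, minus strand): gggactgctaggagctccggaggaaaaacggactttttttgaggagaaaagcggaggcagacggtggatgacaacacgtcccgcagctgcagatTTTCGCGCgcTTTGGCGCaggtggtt
TTTGGCGC began at -20 in E2F1, -42 in E2F2 and -16 in RBL1, which also held TTTCGCGC at -26. Of the members not called, LIN52 held TTTCCCGC at -25, while RBL2, RB1 and CDK4 held none of the 3, as was so for most windows of members called lower.

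Among the pocket proteins, RBL1 alone was called. RBL1 (p107), itself an E2F target, had 45.3, 43.98 and 38.9 CPM in PBS and from 18.3 to 24.3 (median 18.8) CPM in treated libraries (a log2 fold change of -1.12, SE 0.10, adjusted p 1.34e-05). RBL2 (p130), the pocket protein that accumulates in resting cells, had 33.3, 50.2 and 45.6 CPM in PBS and from 36.3 to 47.4 (median 39.6) CPM in treated libraries, with no detectable difference (log2 fold change -0.08, SE 0.13, adjusted p 0.595). RB1, the retinoblastoma protein, had 69.8, 51.4 and 64.7 CPM in PBS and from 48.5 to 59.6 (median 51.1) CPM in treated libraries, which overlapped (log2 fold change -0.25, SE 0.10, adjusted p 0.0567). An additional row bears the symbol RBL1 and overlaps it, so its reads may be split.

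The MuvB core, shared by the DREAM repressor and by the activators that contain MYBL2 or FOXM1, was called in 1 of the 4 parts among the members. LIN9 had 40.4, 33.9 and 30.2 CPM in PBS and from 15.5 to 19.4 (median 17.2) CPM in treated libraries (a log2 fold change of -1.01, SE 0.10, adjusted p 2.53e-05). LIN52 had 15.5, 9.83 and 10.6 CPM in PBS and from 10.8 to 13.8 (median 12.3) CPM in treated libraries and differed by less than the spread between replicates (log2 fold change 0.01, SE 0.15, adjusted p 0.941). LIN54, the part that binds DNA, and LIN37 had log2 fold changes of -0.32 (SE 0.12) and -0.17 (SE 0.20), neither called. The activators all fell. FOXM1 had 112, 91.0 and 83.4 CPM in PBS, 19.8, 21.7 and 13.1 CPM in P-DXd-titled and 13.1, 14.2 and 12.1 CPM in T-DXd-titled libraries (a log2 fold change of -2.61, SE 0.18, adjusted p 4.26e-06). MYBL1 (A-MYB) changed least of them, with 20.6, 20.9 and 21.9 CPM in PBS and from 6.76 to 10.9 (median 8.61) CPM in treated libraries (a log2 fold change of -1.31, SE 0.14, adjusted p 4.38e-05). MYBL2 (B-MYB) lay between, at -2.27 (SE 0.21) on the log2 scale.

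To compare levels between genes, CPM was divided by the length of the canonical transcript in kb. In PBS the order began with CKS1B at 137 ± 19.6 CPM per kb (SD, n = 3), TFDP1 at 123 ± 31.1, CDK1 at 122 ± 35.3, CKS2 at 93.0 ± 18.6 and CCND1 at 88.4 ± 4.42, and the libraries of TFDP1 and CDK1 overlapped those of CKS1B and of CKS2, while CKS1B and CKS2 did not overlap. In treated libraries it began with CCND1 at 113 ± 4.11 CPM per kb (SD, n = 6), CDKN2A at 97.6 ± 6.15, CKS1B at 78.9 ± 8.93, CDKN1A at 68.4 ± 3.01 and CDK4 at 49.9 ± 2.36. The libraries of CCND1 and CDKN2A did not overlap there, while CKS1B at its highest, 93.2 CPM per kb, lay above CDKN2A at its lowest, 91.1. CDK1 went from place 3 to 11 of 48, CCNB1 from 6 to 17, FOXM1 from 15 to 32 and MKI67 from 21 to 37. CDKN1C went from place 39 to 12, CDKN2B from 23 to 7 and CDKN2A from 9 to 2.

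**Figure D3:**
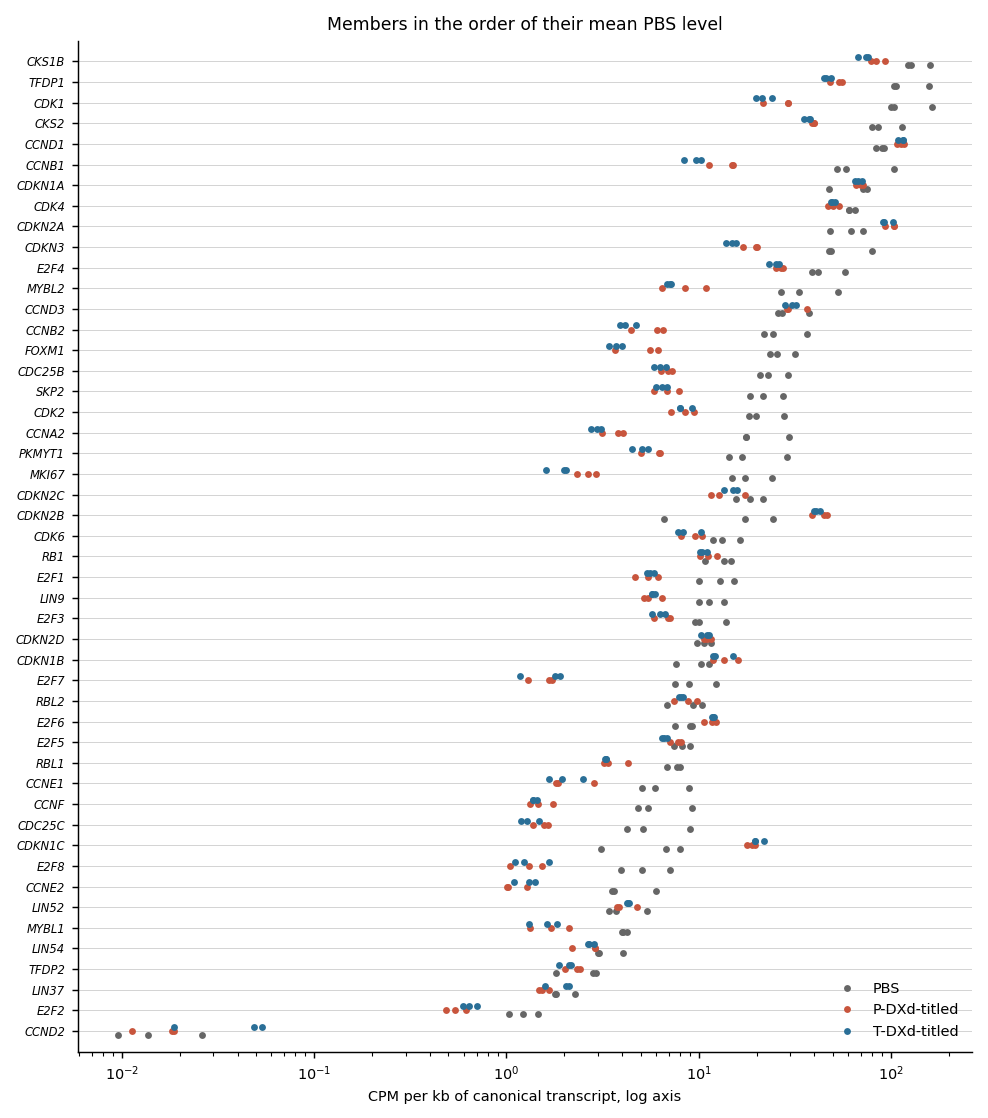
Level of each member in each library, in CPM per kb of canonical transcript on a log axis, with members ordered by their mean in PBS. Grey points are PBS, red P-DXd-titled and blue T-DXd-titled libraries. CCND1 and the INK4 gene CDKN2A are the highest treated points, CDKN1C and CDKN2B lie to the right of their PBS points, and CCND2 is far below all other members.

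Ratios of members within a library do not depend on its size. The ratio of CCND1 to CCNB1, per kb, was 0.8 to 1.76 in PBS and 7.09 to 13.8 in treated libraries. CDK4 to CDK1 was 0.397 to 0.606 in PBS and 1.60 to 2.57 in treated libraries. CDKN1B to SKP2, which targets it for degradation, was 0.276 to 0.613 and 1.90 to 2.203. RBL2 to RBL1 was 0.862 to 1.37 and 2.22 to 2.73, and E2F4 to E2F1 was 3.24 to 3.89 and 4.16 to 5.40. None of the 5 ratios overlapped between PBS and treated libraries. The pairs were chosen after the values were seen and were not tested.

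Other genes of the same pathways were compared from lists. Of 27 other cyclins and CDKs tested, most of which act in transcription or outside the cycle, 6 were called lower and 0 higher, with a median log2 fold change of -0.18. The share called lower, 22.2%, was near the 17.1% of all genes. CCNL2 and CCNL1, cyclins linked to splicing, fell most (-1.53 (SE 0.14) and -1.18 (SE 0.15)), followed by CDK10 (-0.94 (SE 0.13)) and CCNJ (-0.77 (SE 0.14)). Of 17 other regulators of CDKs, DREAM and cyclin turnover, 4 were called lower and 3 higher (median 0.015), shares of 23.5% and 17.6% that were also near those of all genes. CDC25A, a phosphatase that activates CDK2, and FBXO5, an inhibitor of the anaphase-promoting complex, had log2 fold changes of -1.78 (SE 0.18) and -1.34 (SE 0.15). DYRK1A, the kinase that phosphorylates LIN52 to assemble DREAM, had 40.1, 31.0 and 31.8 CPM in PBS and from 50.5 to 81.0 (median 53.9) CPM in treated libraries and rose (log2 fold change 0.77, SE 0.16, adjusted p 0.00197). Its highest value was in P-DXd-titled replicate 2, the library with the highest level of muscle genes, and the other treated libraries had 50.5 to 61.0 CPM. RBBP4, the fifth part of the MuvB core, had a log2 fold change of -0.09 (SE 0.07) and was not called.

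The target genes of the same factors were lower throughout. Of 23 G1/S targets of E2F, 22 were called lower (95.7%, against 17.1% of all genes) and 0 higher, with a median of -1.37. CLSPN (-2.45 (SE 0.23)), MCM10 (-2.31 (SE 0.20)), TYMS (-2.24 (SE 0.23)) and CDC45 (-2.22 (SE 0.16)) fell most, and SLBP (-0.47 (SE 0.07)) was the gene not called. All 28 G2/M targets of DREAM and FOXM1 were called lower, with a median of -2.43, from -3.57 for the mitotic kinesin KIF20A to -2.03 for NUSAP1. In the RefSeq windows, TTTGAA was found in 17 of 23 G2/M targets (73.9%), and at least 1 of the E2F letters in 11 of 20 G1/S targets (55.0%).

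Genes associated with quiescence and with senescence were described beside them. Of 24 quiescence-associated genes, 16 were called higher (66.7%) and 0 lower, with a median log2 fold change of 1.01. Of all genes 15.2% were called higher and 17.1% lower. In this list 3 genes had negative log2 fold changes, and for 1 the treated libraries lay below all PBS libraries. The summed level of the list was 750, 1053 and 1190 CPM in PBS replicates 1 to 3, lowest in replicate 1, and 1909 to 2030 CPM in treated libraries. The transcription factors KLF2 (3.30 (SE 0.19)) and KLF9 (2.21 (SE 0.36)), the PI3K inhibitor PIK3IP1 (2.00 (SE 0.20)) and the thioredoxin-binding protein TXNIP (1.97 (SE 0.23)) rose most. DYRK1B, a kinase active in quiescent cells, also rose (1.12 (SE 0.23)), while BTG1, FOXO1, FOXO3 and CCNG2 were not called. Several genes of the list, among them DYRK1B and KLF9, were highest in P-DXd-titled replicate 2, the library with the highest level of muscle genes. DYRK1B had 47.04 CPM there and 31.9 to 35.7 CPM in the other treated libraries. KLF2, PIK3IP1 and TXNIP were not highest there, and the summed level of the list there was 1966 CPM. What muscle adds to these levels was not tested. Of 21 genes of the senescence-associated secretory phenotype, 12 were called lower (57.1%) and 7 higher (33.3%), with a median of -1.002. The cytokines IL1A (-3.96 (SE 0.44)) and IL1B (-3.03 (SE 0.36)) fell, whereas IGFBP5 (3.39 (SE 0.25)) and GDF15 (3.10 (SE 0.29)) rose. IL1A varied widely in PBS, with 175, 56.8 and 33.3 CPM in replicates 1 to 3, and had 3.35 to 8.10 CPM in treated libraries. IL6 and MMP3 were not called. The nuclear proteins LMNB1 (-2.75 (SE 0.23)), HMGB2 (-2.60 (SE 0.28)) and HMGB1 (-0.84 (SE 0.13)), which are low in senescent cells and of which LMNB1 and HMGB2 also follow proliferation, were all called lower.

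**Figure D4:**
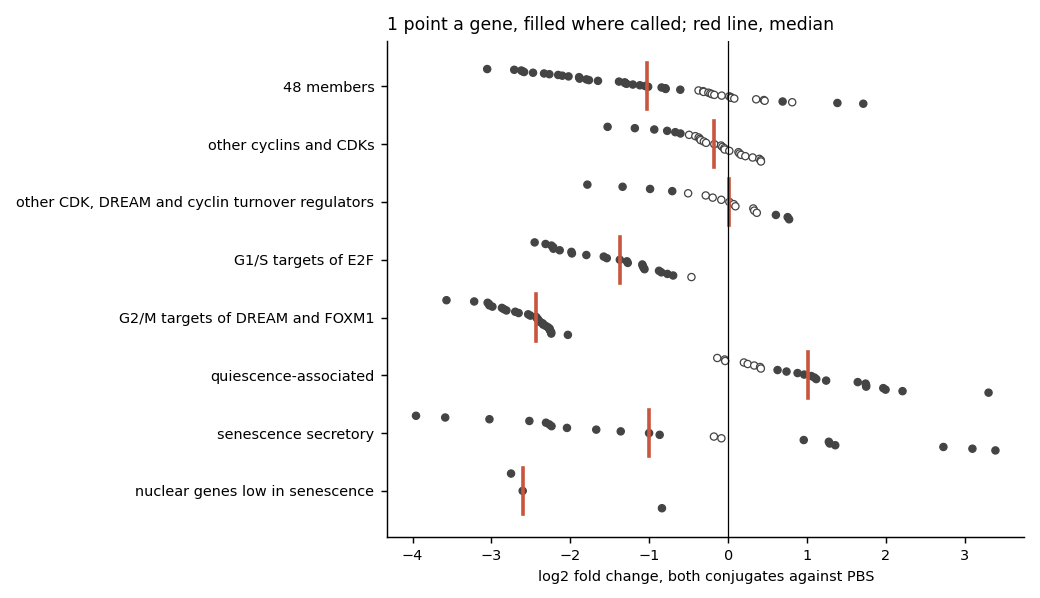
Log2 fold change of both conjugates against PBS for the members and for each list of related genes. Each point is a gene tested, filled where called, and the red line is the median of the list. The G2/M targets lie wholly to the left, with a median of -2.43, the quiescence-associated genes mostly to the right, with a median of 1.01, and the senescence secretory genes on both sides.

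Some genes used as markers of host cell types moved with treatment as well. The handling of mouse reads is not stated, so whether these counts came from mouse or human cells is unknown. The part of host cells in the members' values was not tested. Of 8 macrophage markers tested 5 were called higher (62.5%) and 1 lower (12.5%), against 15.2% and 17.1% of all genes. The summed level of the list was 9.08 to 11.2 CPM in PBS, 21.4 to 31.0 CPM in P-DXd-titled and 31.9 to 42.5 CPM in T-DXd-titled libraries. Of 16 fibroblast markers 7 were called higher (43.8%) and 3 lower (18.8%), and their sum, led by FN1 and COL6A3, was 3972 to 4476, 2328 to 3372 and 3150 to 3485 CPM. Of 6 endothelial markers 1 was called higher (16.7%) and 0 lower, and their sums of 5.04 to 11.5, 6.54 to 11.7 and 9.73 to 9.88 CPM overlapped. All 12 skeletal muscle genes were called higher, with a sum of 21.4 to 75.5 CPM in PBS, 275 to 332 CPM in T-DXd-titled and 125 to 5048 CPM in P-DXd-titled libraries, highest in replicate 2. CDKN1C, which muscle also expresses, had 31.6 CPM in P-DXd-titled replicate 2 and 33.7 to 38.8 CPM in the other treated libraries. Without both P-DXd-titled replicate 2 and PBS replicate 1, 28 members were called lower and 2 higher with both conjugates, and CDKN1C had a log2 fold change of 1.44. The muscle sum was above PBS in every treated library, so what muscle adds to the CDKN1C level was not tested.

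The treated groups were last compared with each other, to ask whether members differed by conjugate. Of 47 members tested, 0 were called by edgeR or by DESeq2, where 0.0273% of all genes were called, and the smallest adjusted p was 0.809. CCND2 was too low to test. The median log2 fold change of P-DXd-titled against T-DXd-titled was 0.089, with 33 members above 0 and 14 below. An unadjusted p under 0.05 was reached by 9 members (19.1%), all higher in P-DXd-titled libraries, against 3.69% of all genes. The groups did not overlap for 7 members (14.9%), also all higher in P-DXd-titled libraries, against 4.13% of all genes. CCNB1 had 30.3, 30.8 and 22.9 CPM in P-DXd-titled and 20.9, 19.7 and 17.0 CPM in T-DXd-titled libraries (a log2 fold change of 0.55, SE 0.13, adjusted p 0.809). MKI67 had the values given above, which did not overlap (log2 fold change 0.48, SE 0.12, adjusted p 0.912), and FOXM1 differed by 0.47 (SE 0.16) with an overlap in 1 library. CDKN3, CCNA2, CKS1B, E2F5 and CKS2 also did not overlap, with log2 fold changes from 0.10 to 0.36. The levels of CCNB1 in both groups were far below those in PBS, which were 211, 118 and 106 CPM. The inhibitors were close in both groups, with differences of -0.11 (SE 0.08) for CDKN1C, 0.09 (SE 0.08) for CDKN2B and 0.08 (SE 0.08) for CDKN2A. A p that misses the threshold does not show that the groups were alike.

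**Figure D5:**
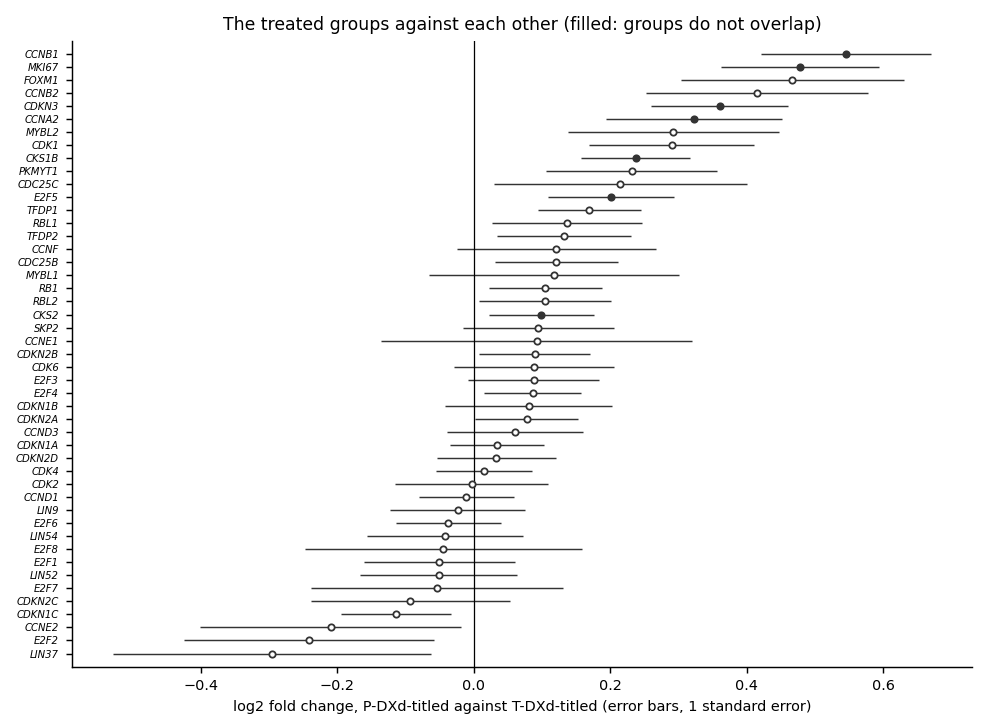
Log2 fold change of P-DXd-titled against T-DXd-titled xenografts for the 47 members tested, in order of size. Bars are 1 standard error and filled points are members whose libraries did not overlap between the groups. The 7 filled points, led by CCNB1 at 0.55 and MKI67 at 0.48, lie to the right of 0, and no member was called.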

How the data were processed

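The authors used Cutadapt to trim reads, STAR to align them and featureCounts for the counts per gene, according to the study's methods. The deposited tables hold raw counts per gene, and the methods used here do not state how mouse reads or strand were treated. The PBS counts in the 2 tables were identical. Only 44 of 15869 gene identifiers had the coordinates of GENCODE v44, although the methods name GRCh38.p13 and Gencode v38 for the alignment, so coordinates are as listed and their build is left unnamed. Canonical transcript lengths are from GENCODE v44. The number of unused columns of per-sample values was 0.

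Each comparison was fitted on the whole table with edgeR 4.0.16 in R 4.3.3 (TMM, filterByExpr, two-sided quasi-likelihood F test, Benjamini-Hochberg adjustment). In simulated data with 200 genes changed 3-fold, 146 (73%) were called for P-DXd-titled against PBS and 166 (83%) for both conjugates. Of the unchanged genes 10 and 11 were called. Some real differences can therefore be missed. Levels are CPM from 1 normalization of all 9 libraries. Alternatives included the Wald test of DESeq2 1.42.0 and leaving out each library. Replicates differed by more than sampling noise, and the labels do not state which came from separate animals, so p-values measure the spread between these libraries. The listed spans of 13 members overlap another listed gene, among them CDK4, CDK2, CCNA2 and FOXM1, and reads could be shared. The members and lists were chosen with earlier results of these data known. Values per library are given for the member of each role that changed most and least, all CDK inhibitors, E2Fs and pocket proteins, and others chosen after their values were seen. Up to 4 genes of each list are named, beside those against its majority and others chosen after their values were seen. Some genes outside the members are not reported here.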

Additional observations from a re-analysis of the deposited data

How the results depend on the processing

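The counts of members called stayed within 1.5 times their values under every alternative run: 25 to 34 in P-DXd-titled, 26 to 35 in T-DXd-titled and 28 to 38 with both conjugates, lowest with glmTreat against a fold change of 1.5 and highest with no fold change minimum, and 0 between the treated groups. Leaving out 1 library gave 26 to 33, 29 to 32, 30 to 32 and 0. Over the alternatives other than these 2 thresholds, 26 of 31, 29 of 32 and 30 of 32 members kept their call in each fit. Counts over all genes moved more: with glmTreat 1130 of 3742, 1696 of 4263 and 2536 of 4855 were called, with no fold change minimum 8398 with both conjugates, without P-DXd-titled replicate 2 or 3 2464 and 1857, and without T-DXd-titled replicate 3 2820. Between the treated groups 4 genes were called, 24 by DESeq2. The first digit of the title code as a block gave 31, 30, 31 and 0 members, and the labels do not say what this digit means. No paired analysis was possible because the labels give no replicate numbers that pair the groups.

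No called member changed sign. Log2 fold changes of uncalled members near 0 did, and the cause was not tested. In P-DXd-titled, LIN52 was -0.0079 with at least 10 counts in every library and -0.013 with all 9 libraries in 1 fit. Without PBS replicate 1 and P-DXd-titled replicate 2, chosen after seeing the data, CDKN1A was -0.085 and CDKN2D -0.030 in P-DXd-titled and -0.101 and -0.031 with both conjugates. With the title code block, T-DXd-titled values were -0.0013 for CDKN1A, -0.0023 for CDKN2D and 0.019 for LIN37. Leaving out 1 library, the values ranged in P-DXd-titled from -0.077 to 0.22 for CDKN1A, -0.28 to 0.21 for CCND2, -0.034 to 0.26 for CCND3, -0.18 to 0.095 for RBL2 and -0.14 to 0.22 for LIN52. In T-DXd-titled they ranged from -0.12 to 0.19 for CDKN1A, -0.037 to 0.085 for CDKN2D, -0.085 to 0.20 for CCND3, -0.11 to 0.091 for LIN37 and -0.083 to 0.27 for LIN52. With both conjugates they ranged from -0.094 to 0.20 for CDKN1A, -0.014 to 0.099 for CDKN2D, -0.057 to 0.23 for CCND3, -0.23 to 0.043 for RBL2 and -0.11 to 0.25 for LIN52.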
